A study of Mus musculus with 20 samples.

Results

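The mitochondrial genome of the mouse holds 37 annotated genes, and all 37 were rows of the deposited table of 48795 Ensembl genes measured by RNAseq in 20 embryonic hearts. They were chosen by position alone, as every gene on the mitochondrial chromosome (symbols beginning mt-), without regard to their values. They comprised 13 protein-coding genes, 2 ribosomal RNA (rRNA) genes and 22 transfer RNA (tRNA) genes. Of the 37 genes, 28 lie on the plus strand of the annotation and 9 on the minus strand. The minus-strand genes are mt-Nd6 and 8 tRNA genes. All 37 genes have the same start and end in GRCm38.p6 and GRCm39.

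Each library was made from the whole heart of an embryo at E13.5, and the mice had a C57BL/6J background. The 10 WT hearts carry no engineered allele. The 5 Dp1Tyb hearts carry Dp1Tyb, a duplication on mouse chromosome 16 that runs from Lipi to Zbtb21 and models the extra chromosome of Down syndrome, with Dyrk1a among its genes. The 5 hearts labelled Dp1TybDyrk1a+/+/- carry the same duplication together with a null allele of Dyrk1a, so that they should have the normal number of working copies of this kinase gene. Both alleles are present in every cell of the embryo and not only in the heart. The null allele lacks exons of Dyrk1a, but the table gives 1 value for the whole gene, and that value was higher in the hearts labelled Dp1TybDyrk1a+/+/- (11.76 ± 0.06, SD, n = 5) than in WT hearts (11.37 ± 0.04, SD, n = 10) on the log2 scale, so it does not check the label. Libraries were sequenced in lanes 3, 6 and 7, which held 4, 4 and 2 WT hearts, 2, 2 and 1 Dp1Tyb hearts, and 1, 1 and 3 hearts labelled Dp1TybDyrk1a+/+/-. Hearts are named by their running number in the labels, A1 to A20. The running numbers were 3 to 12 for Dp1Tyb hearts, 9 to 18 for hearts labelled Dp1TybDyrk1a+/+/- and 1 to 20 for WT hearts, and what they stand for is not given in the sources used here. Per the study's methods the Dp1TybDyrk1a+/+/- mice were kept as a strain of their own, and controls were littermates of the mutants. The labels do not say to which strain a WT heart belongs, so all 10 WT hearts form 1 group here, and in the comparison of Dp1Tyb with Dp1TybDyrk1a+/+/- the genotype and the strain or litter cannot be told apart.

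Mitochondrial DNA is transcribed from both strands as long RNAs that run through many genes. The tRNAs, which punctuate these RNAs, are cut out by the RNase P complex and by ELAC2, and this frees most of the mRNAs and rRNAs between them, most of which then receive a short poly(A) tail. The mRNAs of the plus strand encode 12 subunits of the oxidative phosphorylation complexes, and mt-Nd6 is the single protein-coding gene whose mRNA comes from the other strand. The remaining subunits are encoded in the nucleus, and adult heart muscle depends on these complexes for most of its ATP. The question for this comparison was whether the RNAs of the mitochondrial genes differ between Dp1Tyb hearts, WT hearts and hearts in which the third copy of Dyrk1a is inactivated.

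Several mitochondrial genes share sequence with each other or with the nucleus, which bears on what a count per gene measures. The sequences shown here are from the GENCODE M39 transcripts (GRCm39) and are written 5′ to 3′ on the coding strand of each gene. The reading frames of mt-Atp8 and mt-Atp6, 2 subunits of ATP synthase carried on 1 mRNA, overlap by 43 bases at chrM:7927-7969. The overlap is in capitals in the end of mt-Atp8 and the start of mt-Atp6.
mt-Atp8: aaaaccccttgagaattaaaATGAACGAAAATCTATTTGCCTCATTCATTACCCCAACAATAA
mt-Atp6: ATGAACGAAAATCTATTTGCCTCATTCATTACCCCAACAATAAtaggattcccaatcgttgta

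mt-Nd6 and mt-Nd5 lie end to end on opposite strands, at chrM:13552-14070 and chrM:11742-13565, and their last 14 bases overlap. These 14 bases, in capitals, are the reverse complement of each other in the ends of the genes. The strand setting used for counting is not given in the sources used here. Without it, reads of mt-Nd6 cannot be told apart from antisense reads of the opposite strand.
mt-Nd5: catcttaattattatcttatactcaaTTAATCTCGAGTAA
mt-Nd6: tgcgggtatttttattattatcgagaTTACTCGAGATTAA

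The strands differ in base composition. Along its coding strand mt-Nd6 had 28.1% G and 5.97% C, while the 12 other coding genes together had 11.5% G and 26.0% C. The start of mt-Nd6, with its start codon in capitals, shows how few C residues it has.
mt-Nd6: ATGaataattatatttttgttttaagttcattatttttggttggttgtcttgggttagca

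A block of nuclear DNA on chromosome 1, at chr1:24650616-24655278 (GRCm39), holds 7 annotated pseudogenes that copy a run of mitochondrial genes from mt-Co1 to mt-Nd4. Gm28661 was identical to mt-Co2 over 681 of its 684 bases, Atp6-ps to mt-Atp6 over 678 of 681 bases, and Gm28437 to mt-Co3 over 783 of 784 bases. Gm10222 was identical to mt-Nd4l over 294 of 297 bases and Gm28439 to mt-Nd4 over 876 of 1378 bases. A read from these stretches matches the gene and its copy equally well. The first 60 bases of mt-Co2 and Gm28661 are given with the start codon in capitals.
mt-Co2: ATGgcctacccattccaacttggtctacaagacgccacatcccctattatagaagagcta
Gm28661: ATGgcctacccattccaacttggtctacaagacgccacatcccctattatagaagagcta

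Gm28438 differed from mt-Nd3 at 1 of 345 bases, the substitution T3C, with positions counted from 1 at the first base of mt-Nd3. The differing base is in capitals in the first 23 bases of both.
mt-Nd3: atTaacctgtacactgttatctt
Gm28438: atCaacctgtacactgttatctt

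Values were log2-transformed normalized counts, and a gene was tested where its mean normalized count was at least 10. By this rule 15304 genes were tested, among them 15 of the 37 mitochondrial genes, namely the 13 protein-coding genes and the 2 rRNA genes. None of the 22 tRNA genes was. The log2 value was 0 in every heart for 9 tRNA genes, which is how a gene without counts appears in this table. For the other 13 it lay between -2.31 and 0.99, and the highest were mt-Ts1 at 0.93 to 0.99 and mt-Tl1 at 0.86 to 0.90. Mature tRNAs carry no poly(A) tail, and the libraries were prepared with an mRNA kit. Of 6 nuclear RNAs without a poly(A) tail that were rows of the table, such as Rmrp and Rpph1, none passed the filter either. The tRNA genes therefore give no information on the genotypes here.

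Of the 7 copies on chromosome 1, Atp6-ps, Gm28661 and Gm28437 held most of the counts of the genes they match, and the other 4 held the smaller part. The mean normalized count over 20 hearts was 131111 for Atp6-ps and 11645 for mt-Atp6. It was 115946 for Gm28661 and 4927 for mt-Co2, and 110477 for Gm28437 and 6458 for mt-Co3. The gene itself thus had 8.16% of the count of gene and copies together for mt-Atp6, 4.07% for mt-Co2 and 5.52% for mt-Co3. For mt-Nd4l the gene held 76.1%, with a range over hearts of 52.5% to 95.2%, and for mt-Nd3 91.2%, with a range of 64.0% to 98.5%. For mt-Co1 and mt-Nd4 it had 98.0% or more in every heart. Another pair of copies on chromosome 2, Gm13341 and Gm13340, had mean counts of 57.1 and 39.9.

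**Figure D1:**
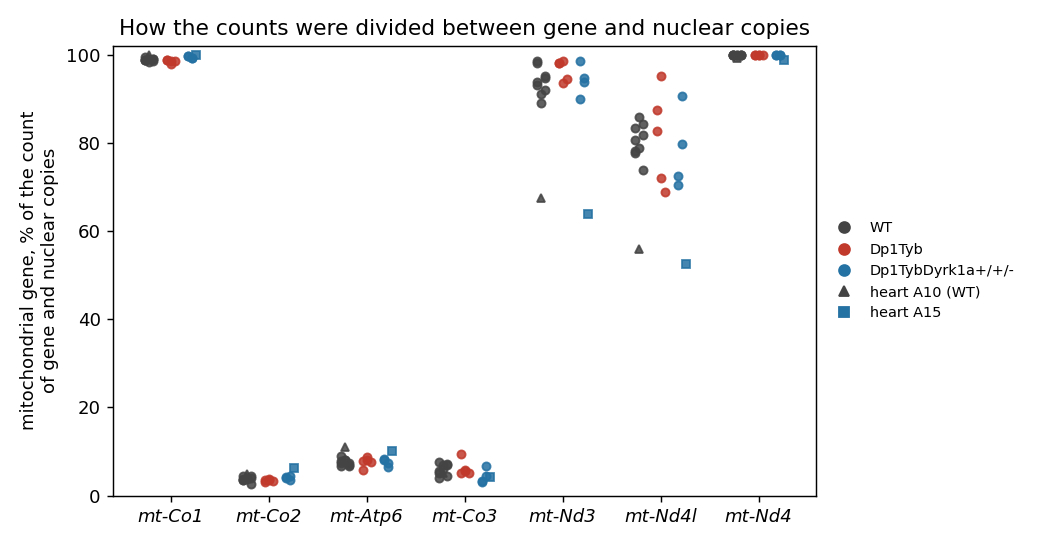
Count of each mitochondrial gene as a percentage of the summed count of the gene and its nuclear copies (vertical axis), with 1 point for each of 20 hearts, coloured by genotype. mt-Co2, mt-Atp6 and mt-Co3 held between 2.64% and 11.1% in every heart, whereas mt-Co1 and mt-Nd4 held nearly all of it.

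The values of mt-Co2, mt-Atp6, mt-Co3, mt-Nd4l and mt-Nd3 alone are therefore uncertain. Their levels per kb, and their fold changes where stated, are given with the counts of the copies added. The division of reads between gene and copy differed between hearts. mt-Nd3 and mt-Nd4l held the lowest parts of their counts in A10 and A15. Gm29216, which matches part of mt-Co1, was lowest in the hearts A10 and A15, at 8.80 and 8.74, compared to 9.50 to 12.6 in the others. Gm28439 was at 10.2 and 11.7 in the same hearts and at 5.04 to 5.38 in the others.

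With the copies added, the counts per kb of the mitochondrial genes formed a graded series. Genes are given in the order of their mean log2 level in the 18 hearts other than A10 and A15. The normalized count per kb of gene length was highest for mt-Atp6 (209627, mean of 20 hearts) and mt-Co1 (190794), a subunit of ATP synthase and the catalytic subunit of complex IV. The other complex IV subunits followed, with mt-Co2 at 176798 and mt-Co3 at 149152. mt-Cytb, the mitochondrial subunit of complex III, had 109255 and mt-Nd1, a complex I subunit, 110829. mt-Atp8 had 89142, mt-Nd4 86977, mt-Nd2 60745, mt-Nd5 53845, mt-Nd3 42250 and mt-Nd4l 40951. Below all 12 of these genes came the rRNA genes mt-Rnr2 (21386) and mt-Rnr1 (20757), which encode the RNAs of the large and small mitochondrial ribosomal subunits. mt-Nd6 was last with 16120. Over the 18 hearts other than A10 and A15 it was 11.9-fold below mt-Atp6 per kb, and mt-Nd4l was 4.91-fold below mt-Atp6. mt-Atp8 and mt-Atp6 are carried on the same mRNA, yet their counts per kb were 89142 and 209627. Steps between genes in this series therefore need not reflect differences in mRNA level. How reads from the bases that mt-Atp8 and mt-Atp6 share were divided between them was not tested. The libraries were prepared with an mRNA kit, and how well it captured each RNA was not measured. The low places of the rRNA genes and mt-Nd6 therefore need not reflect the amounts of these RNAs. Differences between hearts in these genes are likewise differences in counts.

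**Figure D2:**
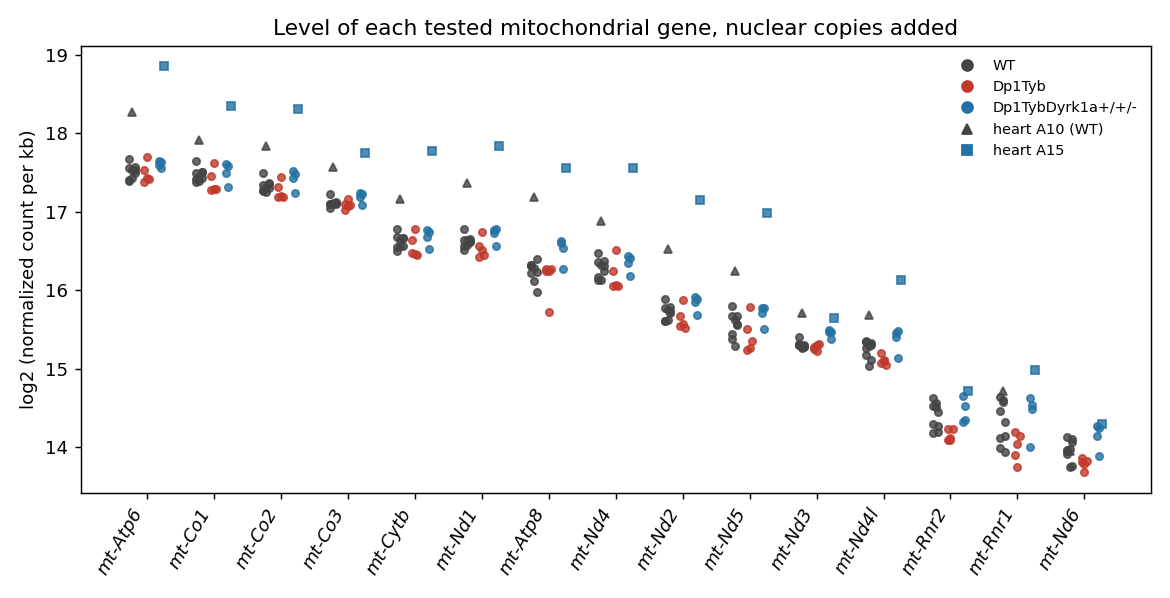
Level per kb of each of the 15 tested genes with the counts of nuclear copies added (vertical axis, log2 scale), in order of their mean, with 1 point per heart coloured by genotype. A10 (triangle) and A15 (square) stand above the other hearts in all 12 plus-strand coding genes, and A10 does not in mt-Nd6.

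Some neighbours in this order did not differ beyond the spread between hearts. mt-Cytb was above mt-Nd1 in 9 of 20 hearts, mt-Atp8 above mt-Nd4 in 11, mt-Rnr2 above mt-Rnr1 in 13 and mt-Nd3 above mt-Nd4l in 14. mt-Co1 was above mt-Co2, mt-Co2 above mt-Co3, mt-Nd1 above mt-Atp8, mt-Nd4 above mt-Nd2, mt-Nd2 above mt-Nd5 and mt-Nd4l above mt-Rnr2 in 20 of 20 hearts. The genes of 1 heart share a library, so these counts describe the hearts and are not a test.

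The hearts A10 (WT) and A15 (labelled Dp1TybDyrk1a+/+/-) stood apart from the rest. In 18 hearts the 37 genes made up between 4.09% and 5.12% of the summed normalized count, whereas the share was 6.68% in A10 and 9.09% in A15. With the nuclear copies added these shares were 5.82% to 7.10% in the 18 hearts, 9.31% in A10 and 12.5% in A15. All 12 plus-strand coding genes were higher in both A10 and A15 than in each of the 18 other hearts once copies were added. Compared to the median of the 18, they were higher on the log2 scale by 0.42 to 0.92 in A10 and by 0.34 to 1.43 in A15. mt-Nd5 was higher by 0.69 in A10 and 1.42 in A15, while mt-Nd6, its neighbour on the other strand, was higher by 0.01 in A10 and 0.36 in A15. mt-Rnr1 was higher by 0.55 and 0.82, and mt-Rnr2 by 0.23 and 0.41.

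**Figure D3:**
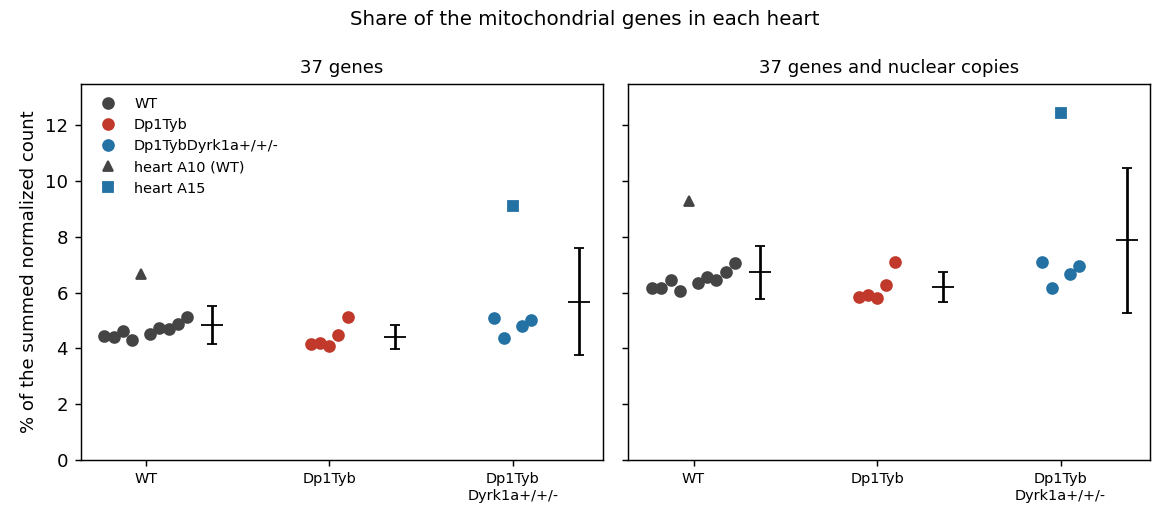
Percentage of the summed normalized count of all genes held by the 37 mitochondrial genes (left) and by these genes and their nuclear copies (right), with 1 point per heart and the mean ± SD of each genotype beside the points. A10 and A15 lie above the other 18 hearts in both panels.

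The nuclear genes of A15 also differed from those of the other hearts. It had the highest value of all 20 hearts in 22.8% of tested genes and the lowest in 26.0%. The mean log2 value of 76 nuclear subunits of complexes I, III, IV and V was lower by 0.22 in A15 than the median of the 18, and that of 3 RNAs retained in the nucleus (Malat1, Neat1 and Kcnq1ot1) was higher by 0.55. The part of these shifts in the mitochondrial values was not tested. Because A10 is a WT heart and A15 belongs to the group labelled Dp1TybDyrk1a+/+/-, results are given with and without them. Both stand out in the mitochondrial values themselves, and leaving them out was planned with earlier results of these data known. A call that appears only without them is therefore a description and not an independent test.

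Compared to WT hearts, none of the 15 tested genes passed the threshold of an adjusted P-value under 0.05 in Dp1Tyb hearts (limma), against a background of 3.08% of all tested genes. At an unadjusted P under 0.05, 3 of the 15 passed, all with lower values in Dp1Tyb hearts (mt-Rnr1, mt-Rnr2 and mt-Nd6), and 15.6% of all tested genes did. For none of the 15 did the hearts of the groups separate without overlap, as they did for 2.63% of all tested genes. With quality weights per heart or with lane in the fit, 1 of the 15 passed in each, mt-Rnr2, where 9.29% and 3.01% of all tested genes passed. Of the 15 log2 fold changes 13 were below 0, with a median of -0.16, while the median over all tested genes was -0.00. The genes above 0 were mt-Nd3 at 0.01 and mt-Co3 at 0.01. With copies added all 15 were below 0. Of all 15304 tested genes 7885 were below 0 in this comparison. The 15 genes share the library of each heart, so their signs are not independent of each other. In bulk tissue, fewer cells of a type and less RNA per cell cannot be told apart.

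Of the 15 genes mt-Rnr2 had the lowest adjusted P-value. It was 14.75, 14.75, 14.78, 14.89 and 14.89 in the 5 Dp1Tyb hearts, and had a lowest value of 14.83, a median of 15.14 and a highest value of 15.29 in the 10 WT hearts. The groups overlapped, with 3 of 5 Dp1Tyb hearts below every WT heart. The log2 fold change was -0.26 ± 0.08 (SE) with an adjusted P-value of 0.082 (limma), and without A10 and A15 it was -0.25 with an adjusted P-value of 0.046, in a fit that called 7.7% of all tested genes. With copies added as well, 7.71% were called. It also passed with the WT heart A8 left out (adjusted P = 0.048, limma). Within lanes 3, 6 and 7 the difference was -0.14, -0.28 and -0.47. mt-Rnr1 had a log2 fold change of -0.35 ± 0.14 (SE) with an adjusted P-value of 0.229, and its Dp1Tyb hearts ranged from 13.67 to 14.12 and its WT hearts from 13.86 to 14.64.

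The 12 plus-strand coding genes had a mean log2 value of 14.85 ± 0.11 (SD, n = 5) in Dp1Tyb, compared to 14.99 ± 0.21 (SD, n = 10) in WT. The difference of -0.14 became -0.08 without A10 and A15, and -0.09 with the running number as a covariate, an alternative chosen after the data were seen. The WT hearts A1, A2, A5 and A8 lay between 14.81 and 14.87, close to the Dp1Tyb mean. The WT hearts numbered A10 or higher lay between 14.91 and 15.52. For mt-Rnr2 the former (A1, A2, A5 and A8) were at 15.18, 15.17, 14.92 and 14.83, and the highest Dp1Tyb heart was at 14.89. Whether A1, A2, A5 and A8 are littermates of the Dp1Tyb hearts is not given by the labels. The values below 0 here therefore cannot be told apart from a difference between litters. For mt-Atp6 the log2 fold change was -0.15 alone and -0.09 with its copy, with adjusted P-values of 0.844 and 0.853 (limma). mt-Co2 had -0.28 alone and -0.11 with its copies (adjusted P = 0.588 and 0.744, limma). With copies added mt-Co3 and mt-Nd3 had -0.07 each and mt-Nd4l -0.18, with adjusted P-values of 0.466 or more (limma). In the deposited values the complex I genes among the 12 had log2 fold changes between -0.20 for mt-Nd5 and 0.01 for mt-Nd3. Complex III had -0.11 for mt-Cytb, each with an adjusted P-value of 0.478 or more (limma). mt-Nd6 was at 12.84 ± 0.07 (SD, n = 5) in Dp1Tyb, compared to 13.01 ± 0.13 (SD, n = 10) in WT, and its log2 fold change was -0.16 with an adjusted P-value of 0.215. The 37 genes together held 4.40% ± 0.42 (SD, n = 5) of the summed count in Dp1Tyb, compared to 4.84% ± 0.69 (SD, n = 10) in WT, or 4.64% ± 0.26 (SD, n = 9) without A10.

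**Figure D4:**
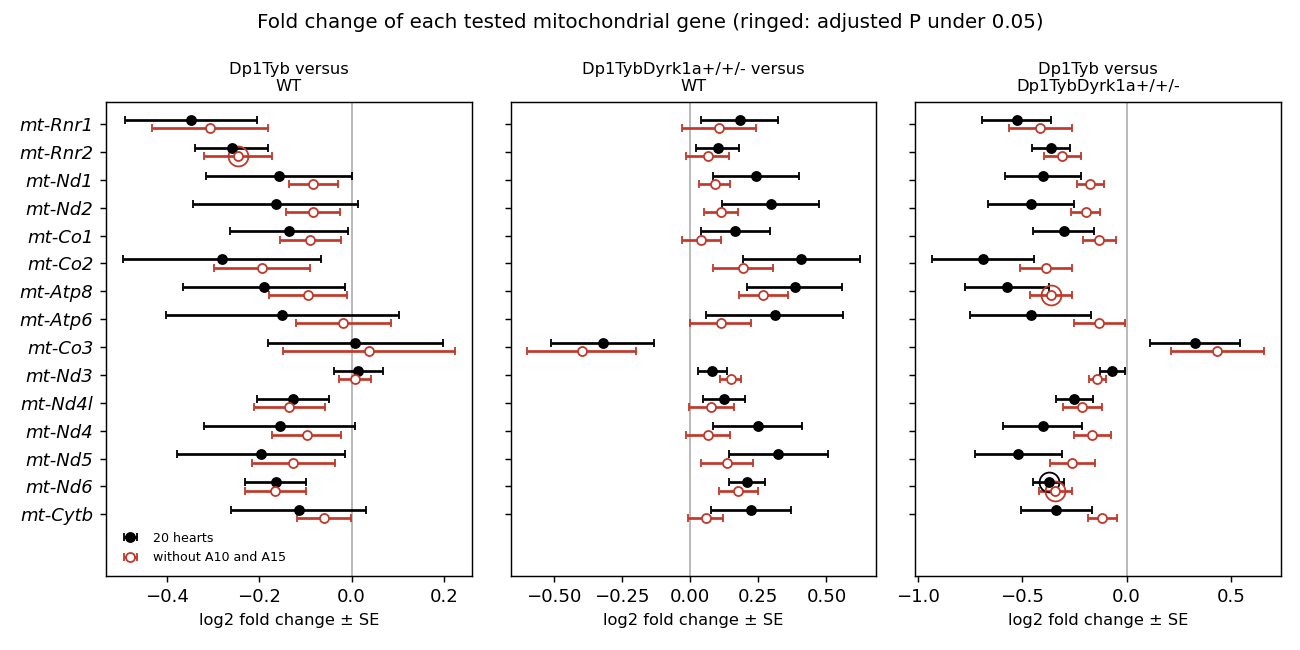
Log2 fold change of each tested gene ± SE (horizontal axis) in the 3 comparisons, in order along the mitochondrial genome, with all 20 hearts (filled) and without A10 and A15 (open). Rings mark an adjusted P-value under 0.05, which mt-Nd6 reached in Dp1Tyb against Dp1TybDyrk1a+/+/- in both fits, mt-Atp8 in the same comparison without A10 and A15, and mt-Rnr2 against WT without them.

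In hearts labelled Dp1TybDyrk1a+/+/- compared to WT hearts, again none of the 15 genes passed the threshold (limma), against 0.712% of all tested genes. At an unadjusted P under 0.05, mt-Nd6 and mt-Atp8 passed, and 9.64% of all tested genes did. For none of the 15 did the hearts of the groups separate without overlap, as they did for 0.64% of all tested genes. With quality weights per heart 1 of the 15 passed, mt-Nd3 (2.23% of all tested genes), and with lane in the fit none did (0.608%). Of the 15 log2 fold changes 14 were above 0, and all 15 with copies added. The exception was mt-Co3, at -0.32 alone and 0.14 with its copy. Of all 15304 tested genes 7251 were above 0, and the signs of the 15 genes are again not independent. mt-Nd6 had a log2 fold change of 0.21 ± 0.07 (SE) with an adjusted P-value of 0.237, and passed with A14 left out (log2 fold change 0.28). The mean of the 12 plus-strand coding genes was 15.19 ± 0.44 (SD, n = 5). It was 0.21 above WT with A10 and A15 and 0.08 above without them, and the same limit on litters holds. For mt-Atp6 the log2 fold change was 0.31 alone and 0.28 with its copy, with adjusted P-values of 0.708 and 0.618. The 37 genes held 5.68% ± 1.93 (SD, n = 5) of the summed count, and 4.83% ± 0.32 (SD, n = 4) without A15.

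Dp1Tyb hearts were then compared to hearts labelled Dp1TybDyrk1a+/+/-, a comparison that shares its Dp1Tyb hearts with the first and its other hearts with the second. Of the 15 genes, 1 passed the threshold, mt-Nd6, against 1.16% of all tested genes (limma). Hearts of the groups did not overlap for 4 of the 15 genes, mt-Nd6, mt-Rnr2, mt-Co2 and mt-Atp8, each lower in Dp1Tyb, and this held for 3.55% of all tested genes in that direction. The closest hearts of the groups were at 12.11 and 12.12 for mt-Co2 and at 13.97 and 13.98 for mt-Atp8. With copies added mt-Co2 overlapped, with the highest Dp1Tyb heart at 16.90 and the lowest of the other group at 16.69. mt-Nd3 separated only with its copy added, at 13.79 and 13.85. At an unadjusted P under 0.05, 10 of the 15 passed, all with lower values in Dp1Tyb, and 18.5% of all tested genes did. With quality weights per heart 5 of the 15 passed, mt-Nd6, mt-Rnr2, mt-Nd3, mt-Co2 and mt-Atp8, where 8.15% of all tested genes did. Of the 15 log2 fold changes 14 were below 0, with a median of -0.40, and a median over all tested genes of 0.00. The median of the 15 was -0.20 without A10 and A15. Of all 15304 tested genes 7346 were below 0. The 15 genes share the library of each heart, so neither these signs nor the 10 genes past the unadjusted threshold are independent.

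mt-Nd6, which encodes a complex I subunit of the inner membrane, had log2 values of 12.73, 12.83, 12.87, 12.87 and 12.92 in the Dp1Tyb hearts. It had 12.93, 13.20, 13.29, 13.31 and 13.35 in the hearts labelled Dp1TybDyrk1a+/+/-. All Dp1Tyb hearts were below all of the latter, but the closest pair, A7 at 12.92 and A14 at 12.93, were both sequenced in lane 3. The log2 fold change was -0.37 ± 0.08 (SE), with an adjusted P-value of 0.023, and -0.34 with an adjusted P-value of 0.022 without A10 and A15. Within lanes 3, 6 and 7 the difference was -0.04, -0.40 and -0.49, and with lane in the fit the adjusted P-value was 0.075, in a fit that called 0.189% of all tested genes. In a fit of these 10 hearts alone it was 0.123, where 0.0196% of all tested genes were called. With the running number as a covariate the log2 fold change was -0.30 and the adjusted P-value 0.178, where 0.0523% were called. It also missed the threshold with 1 heart left out for A4 (0.077), A6 (0.0501), A17 (0.066) and A18 (0.0503). The WT hearts lay between and across the groups, from 12.80 to 13.18.

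**Figure D5:**
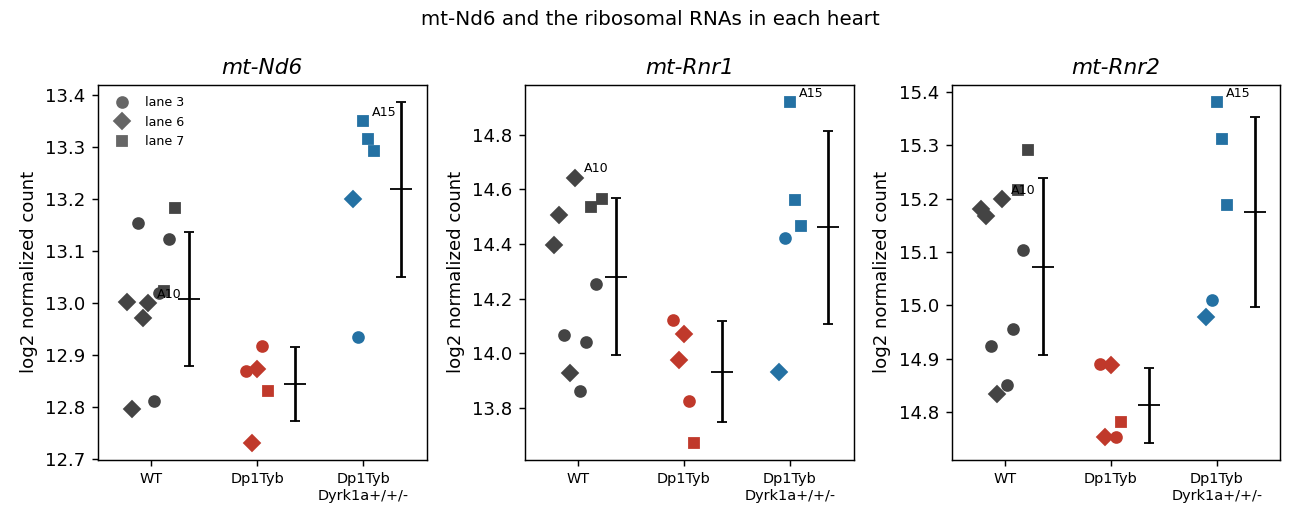
Log2 normalized count of mt-Nd6, mt-Rnr1 and mt-Rnr2 in each heart by genotype, with the symbol giving the lane and the mean ± SD of the genotype beside the points. For mt-Nd6 and mt-Rnr2 every Dp1Tyb heart lies below every heart labelled Dp1TybDyrk1a+/+/-, and 3 of the 5 latter hearts are from lane 7.

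Set against the plus-strand mRNAs of the same heart, the groups lay closer together. mt-Nd6 minus the mean of the 12 other coding genes was -2.01 ± 0.12 (SD, n = 5) in Dp1Tyb, -1.98 ± 0.37 (SD, n = 5) in hearts labelled Dp1TybDyrk1a+/+/- and -1.98 ± 0.22 (SD, n = 10) in WT. The lowest values were those of A15 at -2.61 and A10 at -2.52. Without A10 and A15 the means were -2.01, -1.82 and -1.92, and the difference between Dp1Tyb and Dp1TybDyrk1a+/+/- changed from -0.03 to -0.19. The hearts of the groups overlapped in each case. With the copies added, which raises the plus-strand values of mt-Co2, mt-Atp6 and mt-Co3, the means were -3.09 in Dp1Tyb, -3.09 in Dp1TybDyrk1a+/+/- and -3.06 in WT. Without A10 and A15 these means were -3.09, -2.93 and -3.00, and the hearts of the groups overlapped.

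The rRNA genes had lower mean values in Dp1Tyb hearts, without passing the threshold. mt-Rnr2 had 14.98, 15.01, 15.19, 15.31 and 15.38 in the hearts labelled Dp1TybDyrk1a+/+/-, all above the Dp1Tyb hearts. Its log2 fold change was -0.36 ± 0.09 (SE) with an adjusted P-value of 0.052, and -0.31 with an adjusted P-value of 0.055 without A10 and A15. It passed with A9 (adjusted P = 0.047, limma) or A14 (adjusted P = 0.039, limma) left out, and its difference within lanes 3, 6 and 7 was -0.19, -0.16 and -0.51. mt-Rnr1 had 13.67, 13.83, 13.98, 14.07 and 14.12 in Dp1Tyb hearts and 13.93, 14.42, 14.47, 14.56 and 14.92 in the others, so that the groups overlapped. Its log2 fold change was -0.53 ± 0.16 (SE) with an adjusted P-value of 0.104, and the difference within lanes 3, 6 and 7 was -0.45, 0.09 and -0.98.

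Among the plus-strand coding genes, mt-Atp8 was 13.43 in the Dp1Tyb heart A12 and 13.94 to 13.97 in the other 4. It was 13.98, 14.24, 14.31, 14.34 and 15.26 in the hearts labelled Dp1TybDyrk1a+/+/-. The log2 fold change was -0.57 ± 0.20 (SE) with an adjusted P-value of 0.142, and -0.36 with an adjusted P-value of 0.049 without A10 and A15, where the hearts still did not overlap. In that fit 3.96% of all tested genes were called. mt-Co2 had a log2 fold change of -0.69 alone and of -0.32 with its copies, with adjusted P-values of 0.147 and 0.235. mt-Co3 had a log2 fold change of 0.33 alone and of -0.21 with its copy, with adjusted P-values of 0.422 and 0.274, so that its direction rests on how reads were divided between mt-Co3 and Gm28437. mt-Atp6 had -0.46 alone and -0.37 with its copy, with adjusted P-values of 0.401 and 0.312.

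The genes mt-Nd3 and mt-Nd4l passed the threshold with copies added and without A10 and A15, a setting chosen after the data were seen, in which 3.99% of all tested genes were called. The log2 fold change was -0.18 for mt-Nd3 (adjusted P = 0.003) and -0.26 for mt-Nd4l (adjusted P = 0.038). In the same setting mt-Nd3 was higher by 0.14 in hearts labelled Dp1TybDyrk1a+/+/- than in WT hearts (adjusted P = 0.003, limma), where 1.39% of all tested genes were called. With all hearts and the deposited values, mt-Nd3 was 13.70 ± 0.02 (SD, n = 5) in Dp1Tyb, compared to 13.76 ± 0.17 (SD, n = 5), with an adjusted P-value of 0.566.

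The other 6 coding genes, whose counts lay almost wholly in the gene itself, had log2 fold changes from -0.52 to -0.30 between Dp1Tyb and Dp1TybDyrk1a+/+/- hearts, which became -0.26 to -0.12 without A10 and A15, and none of them passed in either fit. Among the complex I genes, mt-Nd5 was 16.10, 16.13, 16.22, 16.38 and 16.65 in Dp1Tyb hearts and 16.37, 16.58, 16.64, 16.64 and 17.85 in the hearts labelled Dp1TybDyrk1a+/+/-, so that 3 of 5 Dp1Tyb hearts were below all of the latter. The Dp1Tyb heart with 16.65 was A12, the single one from lane 7. mt-Nd1, mt-Nd2 and mt-Nd4 had adjusted P-values of 0.244, 0.237 and 0.256 with all hearts and of 0.124, 0.116 and 0.303 without A10 and A15.

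For complex III, mt-Cytb was 16.64, 16.66, 16.67, 16.83 and 16.97 in Dp1Tyb hearts and 16.72, 16.88, 16.93, 16.96 and 17.97 in those labelled Dp1TybDyrk1a+/+/-. For complex IV, mt-Co1 was 17.88, 17.89, 17.89, 18.06 and 18.22 compared to 17.94, 18.12, 18.19, 18.23 and 18.97. In both genes A12 was the highest Dp1Tyb heart and A14 the lowest heart of the other group, and the groups overlapped. Of the 9 tested nuclear copies, none passed in the 3 comparisons, which called 3.08%, 0.712% and 1.16% of all tested genes. Gm29216, which matches part of mt-Co1, was higher by 1.89 ± 0.48 (SE) on the log2 scale in Dp1Tyb than in Dp1TybDyrk1a+/+/- hearts (adjusted P = 0.053, limma). The other copies were lower in Dp1Tyb in that comparison.

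The nuclear partners of these genes were measured in the same hearts. Of 76 nuclear subunits of complexes I, III, IV and V, 2 were higher in Dp1Tyb than in WT hearts and none lower, where 3.08% of all tested genes were called. None of the 76 passed in Dp1Tyb compared to Dp1TybDyrk1a+/+/- (1.16% of all tested genes, limma). Both that passed, the ATP synthase subunits Atp5pf (1.31-fold) and Atp5po (1.28-fold), lie in the duplicated region. They were also higher in hearts labelled Dp1TybDyrk1a+/+/-, by 1.34-fold and 1.31-fold. The median log2 fold change of the 76 was -0.00 in Dp1Tyb compared to WT and -0.01 in Dp1Tyb compared to Dp1TybDyrk1a+/+/-.

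Of 19 genes of mitochondrial DNA transcription and maintenance none passed in the 3 comparisons, which called 3.08%, 0.712% and 1.16% of all tested genes. Their median log2 fold changes lay between -0.01 and 0.00. Polrmt, the mitochondrial RNA polymerase, was 8.64 ± 0.03 (SD, n = 5) in Dp1Tyb, 8.54 ± 0.10 (SD, n = 5) in hearts labelled Dp1TybDyrk1a+/+/- and 8.65 ± 0.04 (SD, n = 10) in WT hearts. Tfam, which packages mitochondrial DNA and serves transcription initiation, had log2 fold changes of -0.01, 0.03 and -0.04 in the 3 comparisons. Those of Tefm, the elongation factor, were -0.04, -0.02 and -0.02, and those of the helicase Twnk were -0.01, -0.01 and 0.00.

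Of 32 genes of mitochondrial RNA processing and stability, 1 passed over the 3 comparisons, which called 3.08%, 0.712% and 1.16% of all tested genes. Pnpt1, which encodes the RNA-degrading enzyme PNPase, was lower by 0.12 ± 0.03 (SE) in Dp1Tyb than in hearts labelled Dp1TybDyrk1a+/+/- (adjusted P = 0.046). Supv3l1, the helicase that works with PNPase, had a log2 fold change of -0.00 in the same comparison. Lrpprc and Slirp, whose proteins form a complex that stabilizes mitochondrial mRNAs, had -0.01 and -0.04, the poly(A) polymerase Mtpap had -0.05, and Trmt10c and Elac2, which act in tRNA excision, had -0.03 and 0.01.

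Of 11 nuclear regulators of mitochondrial biogenesis, 3 passed in Dp1Tyb compared to WT, against 3.08% of all tested genes. Gabpa, a transcription factor gene in the duplicated region, was 1.23-fold higher, and 1.36-fold higher in hearts labelled Dp1TybDyrk1a+/+/-. Gabpb2, a partner of GABPA, and the deacetylase gene Sirt1 were both lower by 0.09 in Dp1Tyb than in WT. Ppargc1a, a coactivator of mitochondrial biogenesis, was 11.07 ± 0.06 (SD, n = 5) in Dp1Tyb, 11.27 ± 0.19 (SD, n = 5) in hearts labelled Dp1TybDyrk1a+/+/- and 11.22 ± 0.10 (SD, n = 10) in WT hearts, and did not pass. Of 14 tested genes of the mitochondrial stress response, Psat1, an enzyme of serine synthesis, was lower by 0.16 in Dp1Tyb compared to WT (3.08% of all tested genes called), and none passed in the other comparisons.

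All 12 cardiomyocyte markers were expressed in every group, with a summed normalized count of 486616 to 645485 in WT hearts, 491093 to 560440 in Dp1Tyb hearts and 529389 to 575727 in hearts labelled Dp1TybDyrk1a+/+/-. None of the 12 passed in the 3 comparisons, which called 3.08%, 0.712% and 1.16% of all tested genes. Their median log2 fold change was -0.10 in Dp1Tyb compared to WT and -0.12 compared to Dp1TybDyrk1a+/+/-. None passed either among 10 erythroid markers, whose summed counts ran from 91380 to 432716 in WT hearts, 183859 to 401658 in Dp1Tyb hearts and 146339 to 395157 in the third group, or among 6 fibroblast and cushion, 6 endothelial and endocardial, 5 epicardial and 5 macrophage markers. No list had a marker at 0 in every heart. The 3 RNAs retained in the nucleus had a median log2 fold change of -0.27 in Dp1Tyb compared to Dp1TybDyrk1a+/+/-, none passing. The part of these marker levels in the mitochondrial values was not tested.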

How the data were processed

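RNA from 20 hearts was sequenced as libraries from a KAPA mRNA kit. The submitters' processing notes name Trimmomatic 0.36, STAR 2.5.2a, RSEM 1.2.31, DESeq2 and GRCm38. The deposited values are normalized counts on a log2 scale, made by the authors. Their spread shrinks at low values, as a regularized log gives, so changes of low genes are understated. Library depth is unknown from this table, and 0 columns were left without a sample. Genes with a mean normalized count (2 to the power of the value) of at least 10 were tested by limma 3.58.1 (R 4.3.3, trended eBayes, all 20 hearts in 1 fit, Benjamini-Hochberg adjustment over 15304 genes, threshold 0.05). Each library is a separate heart per the labels, grouped by genotype. On simulated data with 200 genes shifted by 0.3, the fit called 188 of them with 9 false calls for Dp1Tyb versus WT. The simulated noise was independent between genes and held no outlying hearts such as A10 and A15. It therefore does not measure how often a shift in the mitochondrial genes would be called.

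The 37 genes, the gene lists and the tests were chosen with earlier results of these data known. Named genes were all 37 members, every listed gene that passed in any comparison, and 13 further genes named whatever their values. Nuclear copies were found by blastn 2.17.0 of GENCODE M39 transcripts against the mitochondrial chromosome, with at least 90% identity over 100 bases. Of 16 copies found, 9 were tested, and their normalized counts were added to those of the matching gene in an alternative chosen after seeing the data.

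Class means and shares are descriptions without a test. Alternatives covered the filter, normalization, trend, robust and weighted fits, lane, the running number of the heart (added after seeing the data), the groups in the fit and each heart left out.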

Additional observations from a re-analysis of the deposited data

Results flagged for a closer look

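For each of the 15 tested genes, for mt-Nd6 minus the 12 other coding genes and for the share of the 37 genes, each genotype was examined for a heart far from the rest of its group. In 51 such groups 22 had a heart whose gap to its nearest neighbour, as a fraction of the range of the group, was above Dixon's 95% critical value. Of these 22 flags, 11 were A15, 10 were A10 and 1 was A12. A10 and A15 had already been set apart by these same values, so the number of flags is a description and not a test. The genes of 1 heart share a library, so the flags of a heart are not independent.

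In the group labelled Dp1TybDyrk1a+/+/-, A15 was the highest heart with a gap of 0.826 of the range for mt-Nd1, 0.844 for mt-Nd2, 0.72 for mt-Co1, 0.854 for mt-Co2, 0.718 for mt-Atp8, 0.777 for mt-Atp6, 0.814 for mt-Nd4, 0.817 for mt-Nd5, 0.808 for mt-Cytb and 0.851 for the share of the 37 genes. It was the lowest for mt-Nd6 minus the 12 others, with a gap of 0.729.

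Among WT hearts, A10 was the highest with a gap of 0.693 of the range for mt-Nd1, 0.694 for mt-Nd2, 0.516 for mt-Co1, 0.658 for mt-Atp8, 0.737 for mt-Atp6, 0.529 for mt-Nd4, 0.466 for mt-Nd5, 0.589 for mt-Cytb and 0.658 for the share of the 37 genes. It was the lowest for mt-Nd6 minus the 12 others, with a gap of 0.517.

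Among Dp1Tyb hearts, A12 was the lowest for mt-Atp8, at 13.43 on the log2 scale, with a gap of 0.951 of the range.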

How the results depend on the processing

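The count of mitochondrial genes past the threshold moved between settings, and so did the share of all tested genes. For Dp1Tyb compared to WT it was 0, with 3.08% of all tested genes called. It became 1, mt-Rnr2, with quality weights per heart (9.29% of all), lane as a covariate (3.01%), a fit of these groups alone (5.09%), without A15 (6.27%), and without A10 and A15 (7.7%, or 7.71% with copies added). It ranged from 0 to 1 with single hearts left out (1.74% to 3.16%). For Dp1TybDyrk1a+/+/- compared to WT it was 0 (0.712%) and became 1, mt-Nd3, with quality weights (2.23%) and with copies added without A10 and A15 (1.39%), and it ranged from 0 to 1 with single hearts left out (0.575% to 1.03%). For Dp1Tyb compared to Dp1TybDyrk1a+/+/- it was 1 (1.16%). It became 0 with lane (0.189%) or the running number (0.0523%) as a covariate and in a fit of these groups alone (0.0196%). It became 2 with a count minimum of 100 (2.39%), median centring (1.47%), no trend (1.65%), without A10 (2.64%), or without A10 and A15 (3.96%), 4 with copies added without A10 and A15 (3.99%), and 5 with quality weights (8.15%). It ranged from 0 to 2 with single hearts left out (0.196% to 1.97%). The adjusted P-value of mt-Nd6 ran from 0.005 to 0.178 over 16 alternatives other than these last. The causes were not tested.

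All 265 alternative values of the class means, of mt-Nd6 minus the others and of the share moved by less than 1 SD between hearts, a spread that A10 and A15 widen. Of 1320 alternative fold changes of single genes, none that was called changed direction. No paired analysis was possible because the labels tie no heart of 1 genotype to a heart of another: running numbers are not shared, and neither litter nor strain is given for WT hearts. The table gives no counts per library, so the precision of a single value is not known.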
